A study of Mus musculus with 20 samples.

Results

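Epidermal keratinocytes rest on a basal layer and differentiate upwards, and the 8 genes described here mark both states. They are Krt14, Krt5, Krt10, Krt1, Krt15, Trp63, Dsp and Perp, and every probe set that the array's gene table assigns to one of these symbols was taken. The 8 genes themselves were named with earlier results of these data known. This gave 14 probe sets of the 45141 on the array. Of the 14, 10 exceeded their array's median signal in at least 4 of the 20 arrays and were tested, and all 8 genes had a tested probe set. The remaining 4, of which 3 belong to Trp63 and 1 to Dsp, were above the median in 0 arrays and are described by their values only. Some members passed this filter through 1 group: Krt15 exceeded the median in 4 ES tumors and nowhere else, Trp63 in 4 eMC CIC-DUX4, 2 eMC empty and 1 ES array, and Krt1 in 4 eMC empty, 1 eMC CIC-DUX4 and 1 ES array. Without those 4 arrays each would not have been tested, so that a difference from the group of its high values is partly set by the filter.

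Keratins are obligate pairs of type I and type II filament proteins. Krt14 and Krt5 form the pair of the basal layer, Krt10 and Krt1 replace them when cells leave it, and Krt15 marks basal cells and the hair follicle bulge. Trp63 encodes p63, the transcription factor that maintains stratified epithelia and activates Krt14, Krt5 and Perp. Dsp (desmoplakin) anchors keratin filaments to desmosomes, and Perp is a membrane protein of desmosomes that p53 and p63 both induce. Mesenchymal cells and sarcomas are not epithelial, and keratin filaments are not their usual cytoskeleton.

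The arrays came from 4 groups of mouse samples, 1 array each. CDS (6 arrays) are CIC-DUX4 sarcomas that formed under the skin of Balb/c nude mice after transplantation of embryonic mesenchymal cells (eMC) carrying the fusion gene CIC-DUX4. ES (6 arrays) are mouse Ewing sarcoma tumors, also grown subcutaneously in Balb/c nude mice and likewise untreated. eMC CIC-DUX4 (4 arrays) are cultured primary mesenchymal cells taken 48 hours after transduction with a retrovirus carrying CIC-DUX4 and GFP, and eMC empty (4 arrays) received the GFP retrovirus without the fusion. The labels give neither the fusion of the ES tumors nor the age or sex of any animal, and do not say whether samples of a group came from separate cultures, animals or tumor lines, so the p-values measure only the spread between these samples. Tumor RNA was from whole tissue, in which fewer cells of a type and less RNA per cell cannot be told apart.

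Values are MAS5 signals, given as log2(signal + 1.42385) with an offset of 0.25 times the typical array median. The arrays differ in shape: most have a dim and a bright part, and the lowest density between them (the dip) lay between 3.36 and 8.19, with no dip in eMC CIC-DUX4 6. Probe sets above the dip made up 11.1% to 26.9% in eMC empty, 27.9% to 40.4% in ES and 11.7% to 57.3% in CDS. Signals below the dip have no dependable order between arrays. Fold changes are given as deposited unless quantile normalization is named. The members' values on both scales are in the plot of fold changes, and levels are also given as the percentile of the probe set within its own array. A call required a limma p under 0.05 after Benjamini-Hochberg adjustment over 26897 probe sets and a change of 1 or more on the log2 scale in either direction. As a check of the labels, Etv4, an ETS factor gene repressed by CIC, had a mean of 12.98 ± 0.66 (SD, n = 6) in CDS and 2.07 ± 0.40 (n = 4) in eMC empty, but it did not separate the cultures: it read 1.56, 6.06, 1.64 and 1.69 in eMC CIC-DUX4 5 to 8, percentiles 14.4 to 23.8 against 7.29 to 24.7 in eMC empty. Of 7 tested fusion-related genes, 5 were called higher in eMC CIC-DUX4 than in eMC empty as deposited, where 43.4% of all probe sets were. After quantile normalization 4 of them (Etv1, Etv5, Vgf and Prkcb) were called (7.43% of all), and 0 with arrays scaled to 1 median. The list's summed signal was 4360 to 5040 against 79.3 to 214, but the median change over all probe sets was 1.98 on the log2 scale. Mesenchymal markers stood at a median percentile of 96.1 to 97.4 in all 8 eMC arrays.

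Promoter sequences were held for 4 of the 8 genes in RefSeq (GRCm38.p6), and 3 are printed because Krt5 and Dsp share the pattern described below while Krt10 does not. The entry of Krt14, which also shares the pattern, starts inside the gene and is not printed. Each is the 250 bases before the annotated start, 5′ to 3′ on the gene's strand, at chr15:101712906-101713155 (minus strand) for Krt5, chr13:38151044-38151293 (plus strand) for Dsp and chr11:99389365-99389614 (minus strand) for Krt10, whose entry is not the outermost start of the gene. Capitals mark a decamer of the p53 family, the type of site p63 binds, the AP-2 letters GCCNNNGGC or a TATAAA box, each searched on both strands.
Krt5: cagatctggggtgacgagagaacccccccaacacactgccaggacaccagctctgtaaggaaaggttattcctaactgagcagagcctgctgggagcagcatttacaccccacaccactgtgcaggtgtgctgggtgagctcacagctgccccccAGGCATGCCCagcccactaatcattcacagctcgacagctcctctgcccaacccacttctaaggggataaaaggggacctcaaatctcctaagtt
Dsp: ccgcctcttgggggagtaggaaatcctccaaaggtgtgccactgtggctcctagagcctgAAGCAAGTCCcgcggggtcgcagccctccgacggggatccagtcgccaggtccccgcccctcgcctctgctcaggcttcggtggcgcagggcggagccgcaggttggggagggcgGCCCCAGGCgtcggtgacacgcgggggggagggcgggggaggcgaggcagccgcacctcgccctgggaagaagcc
Krt10: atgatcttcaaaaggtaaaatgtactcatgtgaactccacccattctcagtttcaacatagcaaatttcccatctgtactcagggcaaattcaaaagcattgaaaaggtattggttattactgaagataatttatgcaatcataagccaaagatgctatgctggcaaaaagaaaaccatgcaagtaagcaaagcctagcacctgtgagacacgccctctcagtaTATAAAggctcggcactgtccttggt
The decamer begins 95 bases before the start of Krt5 and 190 before that of Dsp, and 7.13% of all 32851 promoters of this length hold one. Dsp also holds AP-2 letters 75 bases before its start (13.7% of all promoters), and Krt10 the TATAAA box 26 bases before it (12.4%). The entry of Krt14 held 0 decamers, 0 AP-2 letters and 0 TATAAA boxes, so the decamer is not common to the genes of this pattern. Like that of Krt10, its start is not the outermost of the gene. These are matches of letters and were not measured as bound sites.

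Krt14 separated the cultures from nearly all tumors. Its probe set 1423935_PM_x_at read 9.82, 9.49, 10.43 and 10.35 in eMC empty 4 to 7 and 10.68, 10.45, 10.62 and 10.68 in eMC CIC-DUX4 5 to 8. In CDS it ranged from 1.59 through a median of 2.07 to 3.15, and in ES from 1.68 through 1.88 to 11.05. The highest ES value belonged to ES 48 alone, the other 5 ES tumors lying between 1.68 and 1.99, so CDS overlapped with ES but with neither culture. A second Krt14 probe set, 1460347_PM_at, gave the same order, with 5.49 to 9.03 in eMC empty, 9.68 to 9.96 in eMC CIC-DUX4, 1.33 to 2.70 in CDS and 9.76 in ES 48 against 1.41 to 1.94 in the other ES tumors. Within the arrays, the 2 probe sets stood at percentiles 81.5 to 89.8 in the 8 cultures and 4.24 to 18.9 in the 6 CDS tumors. A probe set with "_x_" in its name holds probes that can match other transcripts, and keratins of 1 type are similar in sequence.

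**Figure D1:**
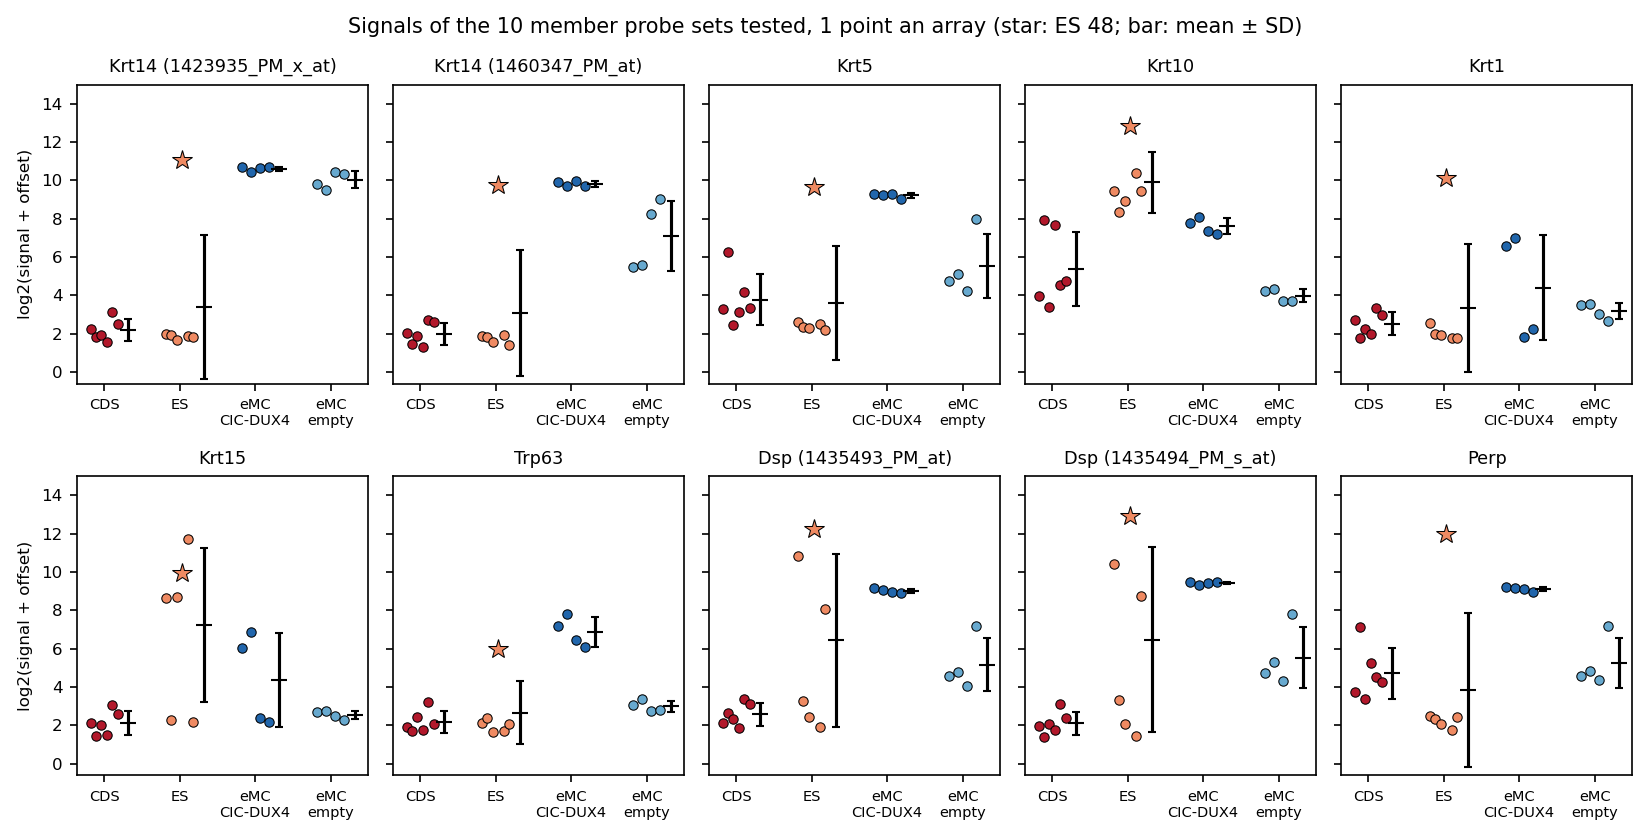
Log2 signal (vertical axis) of the 10 tested probe sets in each of the 20 arrays, by group, with points for arrays and bars for the group mean and SD; ES 48 is marked. Krt14 (1423935_PM_x_at) is high in the cultures of both groups and in ES 48. Krt5 and Perp are high in the cultures with CIC-DUX4 and in ES 48, whereas Krt10 is high in all 6 ES tumors.

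In CDS tumors set against eMC empty, the basal keratin Krt14 and desmoplakin were lower. Krt14 fell by 7.82 on the log2 scale (SE 0.94, adjusted p = 4.86e-06, limma), from 10.02 ± 0.45 (SD, n = 4) to 2.21 ± 0.57 (n = 6). All CDS values were below the dip of their array, so the fold is given as a bound, at least 18.6-fold. The other Krt14 probe set fell by 5.09 (SE 0.81, adjusted p = 0.000137, at least 2.44-fold), and the change after quantile normalization was -8.2 and -6.99 for the pair.

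Dsp read 4.72, 5.28, 4.30 and 7.82 in eMC empty 4 to 7 with 1435494_PM_s_at, and from 1.38 to 3.13 with a median of 2.00 in CDS. The groups did not overlap, and the difference was -3.43 (SE 0.65, adjusted p = 0.000788, limma), or -5.77 after quantile normalization. The second tested probe set of Dsp differed by -2.6 (SE 0.65, adjusted p = 0.00791), or -4.75. Only eMC empty 7 had Dsp above its dip.

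In this comparison 4 of the 10 probe sets were called lower and 0 higher, where 4.89% of all probe sets tested were called lower and 13.2% higher, and the median of the 10 was -1.28 against 0.89 for all. The 4 were also those whose values did not overlap in the direction of lower, which held for 6.29% of all. After quantile normalization 8 of 10 were called lower (19.9% of all), adding Krt5 (-4.29), Perp (-2.69), Krt1 (-1.42) and Trp63 (-1.34). As deposited these 4 genes missed the threshold: Krt5 differed by -1.74 (SE 0.97, adjusted p = 0.198, limma) and Perp by -0.54 (SE 1.01, adjusted p = 0.697). Krt1 and Trp63 were below the dip in every array of both groups, and Krt1 would not have passed the filter without eMC empty. Krt10 and Krt15 were called on neither scale: Krt10 differed by 1.38 (SE 1.05, adjusted p = 0.333) as deposited and -0.48 after quantile normalization, and Krt15 by -0.43 (SE 0.29, adjusted p = 0.281) and -0.67. The Actb 3′ probe sets exceeded the 5′ ones by 0.80 ± 0.36 in CDS and 0.17 ± 0.03 in eMC empty on the log2 scale (exact permutation test, two-sided, p = 0.019, adjusted over 10 array comparisons 0.0476), and the part of this RNA measure in the result was not tested.

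The difference from the transduced cultures, which carry the same fusion as the tumors, was larger as deposited. eMC CIC-DUX4 5 to 8 read 9.31, 9.22, 9.31 and 9.04 for Krt5, the partner of Krt14, and the CDS tumors 2.47 to 6.28 with a median of 3.30. No value overlapped, and Krt5 fell by 5.45 (SE 0.92, adjusted p = 0.000903, limma). Perp read 9.20, 9.18, 9.11 and 8.96 in the same cultures and 3.37 to 7.11, median 4.38, in CDS, a fall by 4.41 (SE 0.90, adjusted p = 0.00355). With arrays scaled to 1 median, the call of Perp was lost (-3.56, adjusted p = 0.0557).

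Trp63, the regulator among the members, read 7.16, 7.78, 6.42 and 6.06 in eMC CIC-DUX4 and 1.69 to 3.19, median 1.99, in CDS. It fell by 4.68 (SE 0.80, adjusted p = 0.000979, limma, at least 2.07-fold), and by 2.55 after quantile normalization. Without the eMC CIC-DUX4 arrays it would not have been tested, so the filter partly sets this difference. Krt14 fell by 8.4 (SE 0.82, adjusted p = 7.66e-06, at least 27.8-fold) and Dsp by 7.32 (SE 0.83, adjusted p = 2.99e-05, at least 12.3-fold) from the cultures with the fusion to the tumors. In all, 7 of 10 probe sets were called lower and 0 higher, where 12.1% of all were called lower and 4.47% higher, and the same 7 did not overlap (17.4% of all were lower without overlap). After quantile normalization 8 were called lower (19.0% of all). Krt10 (-2.25, SE 1.04, adjusted p = 0.143) and Krt1 (-1.9, SE 1.04, adjusted p = 0.212) were not called on either scale. The quantile-normalized differences of these genes were 0.16 and -0.67. The Actb 3′ to 5′ difference was 0.80 ± 0.36 in CDS and 0.22 ± 0.02 in eMC CIC-DUX4 (exact permutation test, two-sided, p = 0.019, adjusted 0.0476), and its part in the result was not tested. The CDS arrays are the same as in the comparison with eMC empty.

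**Figure D2:**
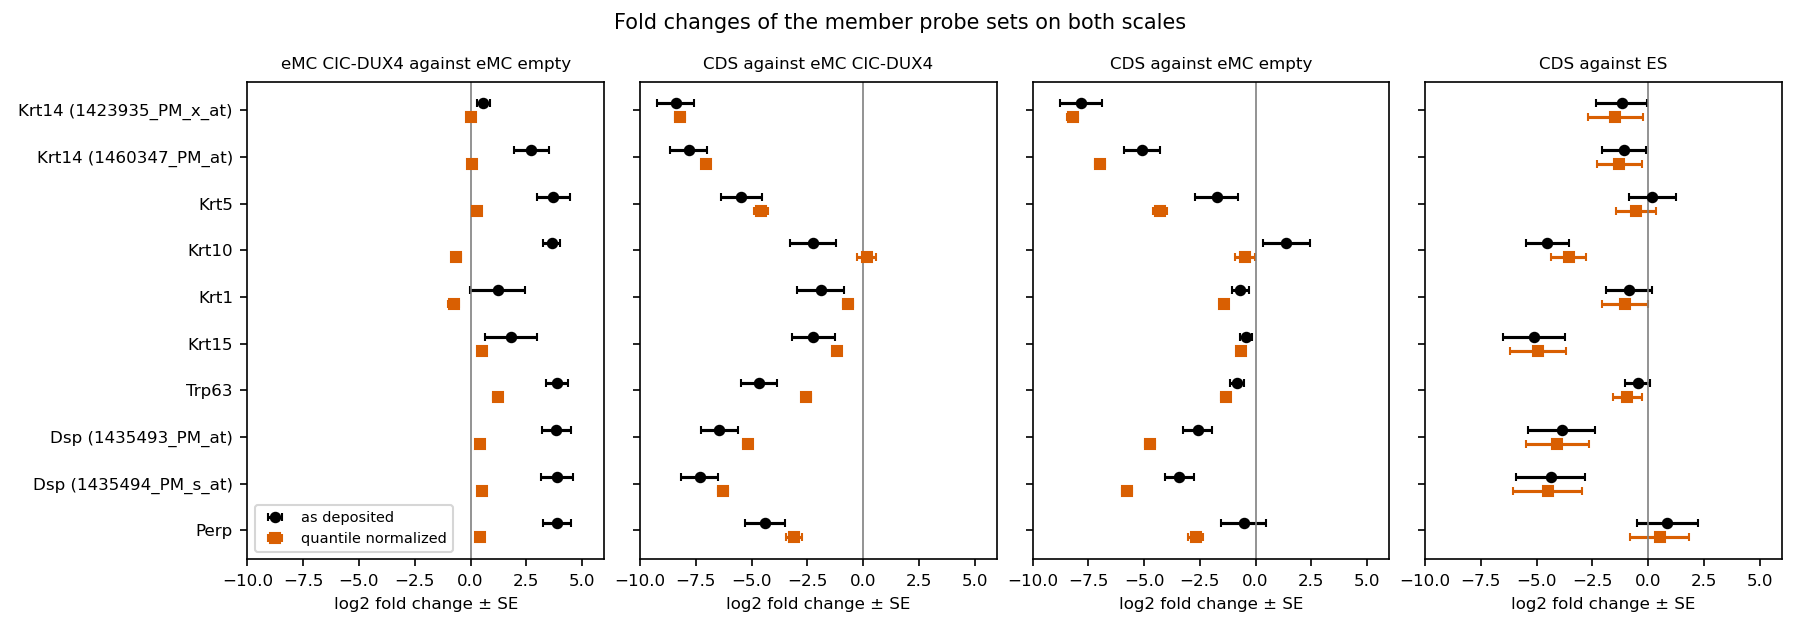
Log2 fold change (horizontal axis, with SE) of the 10 tested probe sets (rows) in 4 comparisons, as deposited (black circles) and after quantile normalization (orange squares). Krt14 is at -7.82 and -8.2 on the 2 scales for CDS against eMC empty, whereas its changes between the cultures shrink from 0.58 and 2.72 to 0.00 and 0.05.

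Between the cultures, the deposited signals put most members higher with CIC-DUX4. Krt5 read 4.74, 5.12, 4.24 and 7.96 in eMC empty and was higher by 3.7 (SE 0.74, adjusted p = 0.00216, limma) with the fusion. Perp was higher by 3.87 (SE 0.62, adjusted p = 0.00053), from 5.24 ± 1.31 to 9.11 ± 0.11 (SD, n = 4 each), and the Dsp probe sets by 3.84 and 3.89. In all 7 of 10 were called higher, but so were 43.4% of all probe sets tested (4.18% were lower), and the median change over all was 1.98. Groups did not overlap for 8 members, where 42.7% of all were higher without overlap.

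After quantile normalization 1 of 10 remained, Trp63, against 7.43% of all called higher. Without its 4 eMC CIC-DUX4 arrays Trp63 would not have been tested, so this difference is partly set by the filter. Trp63 read 3.06, 3.36, 2.74 and 2.81 in eMC empty, all below the dip, and differed by 3.86 (SE 0.49, adjusted p = 0.000131) as deposited and by 1.22 (SE 0.20, adjusted p = 0.000254) after quantile normalization. Its percentile was 47.8 to 56.5 in eMC empty and 60.2 to 64.3 in eMC CIC-DUX4, without overlap. With arrays scaled to 1 median, its difference was 2.3 (adjusted p = 0.162), and limma called 0 of 10 members and 0.00% of all probe sets, although 2 members and 6770 of all had an unadjusted p under 0.05. The 3 untested Trp63 probe sets read 4.24 to 6.66 in eMC CIC-DUX4 5 and 6 and 1.52 to 2.25 in eMC CIC-DUX4 7 and 8, below the array median everywhere.

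The arrays of the 2 cultures themselves differ. Their 75th percentile of signal was 8.78 ± 0.20 with the fusion and 5.14 ± 1.25 without (exact permutation test, two-sided, p = 0.0286, the smallest 4 against 4 allow; adjusted p = 0.0476). In rank the members moved unequally. Krt5 was at percentile 77.9 to 79.3 with CIC-DUX4 and 75.3 to 78.3 without, and Perp at 77.4 to 77.9 and 75.2 to 76.3. The ranks of Perp, Trp63 and the Dsp probe set 1435493_PM_at (75.8 to 77.1 with and 73.3 to 75.4 without) did not overlap. Nor did those of Krt15, at 44.1 to 48.7 with and 29.0 to 36.0 without. Krt1 was lower with the fusion, at 28.2 to 54.6 against 51.9 to 60.1, with overlap. The share of all probe sets without overlap in rank was not computed. Krt10 turned sign between the scales, with 3.63 as deposited (SE 0.39, adjusted p = 4.9e-05) and -0.64 after quantile normalization. In eMC empty 4, 5 and 6 the signals of Krt5, Dsp and Perp lay below the dip. Those of Krt15 and Krt1 lay below it in all eMC empty arrays and in eMC CIC-DUX4 7 and 8. The percentiles of these genes there rank dim signals. The Krt14 probe sets disagreed: 1423935_PM_x_at differed by 0.58 (SE 0.29, adjusted p = 0.112) and 1460347_PM_at by 2.72 (SE 0.79, adjusted p = 0.0153). Without eMC CIC-DUX4 5 and 6, whose median signals exceed 5, the second had an adjusted p of 0.0897 and Krt1 changed from 1.22 to -1.15.

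**Figure D3:**
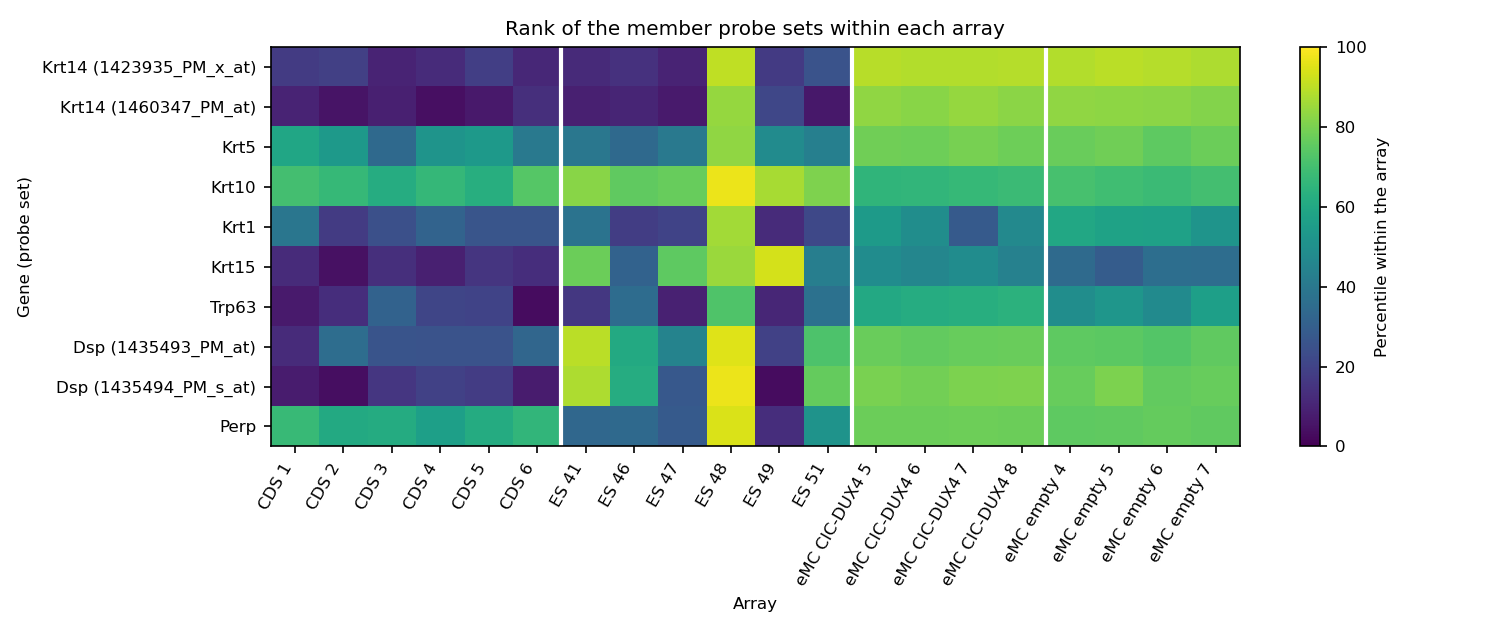
Colour map of the percentile, from 0 to 100, of each tested probe set (rows) within its own array, with the 20 arrays as columns and white lines between the groups. Krt14 stands at 81.5 to 89.8 in all 8 cultures and at 4.24 to 18.9 in the CDS tumors, and ES 48 lies with the cultures at 84.1 and 90.6.

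Krt1 and Krt15 exceeded the dip in eMC CIC-DUX4 5 but in none of the other 6 cultures with a dip. Krt1 read 6.55 and 7.00 in eMC CIC-DUX4 5 and 6 but 1.85 and 2.23 in 7 and 8, and 2.66 to 3.56 in eMC empty. Krt15 read 6.01 and 6.87, then 2.40 and 2.15, in the same cultures, and 2.28 to 2.74 in eMC empty. The first pair of arrays has the raised median of all signals, but in rank Krt15 was alike in all 4 arrays with the fusion. Basal Krt14 and Krt5 ranked above the differentiation keratin Krt1 (28.2 to 60.1) in every culture, a comparison of ranks between probe sets that does not measure relative amounts.

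The ES tumors held different keratins. Krt10, the type I keratin of the layers above the basal one, read 9.43, 8.34, 8.92, 12.85, 10.40 and 9.44 in ES 41, 46, 47, 48, 49 and 51, a range of 8.34 to 12.85 around a median of 9.44. It ranged from 3.38 to 7.93 with a median of 4.65 in CDS, and the groups did not overlap. CDS was lower by 4.52 (SE 0.97, adjusted p = 0.00289, limma), or -3.57 after quantile normalization. Percentiles were 75.7 to 97.0 in ES and 61.9 to 73.6 in CDS. Its usual partner Krt1 stood at 1.75 to 2.56 in 5 ES tumors and 10.14 in ES 48, so Krt10 was bright without Krt1 in 5 of 6.

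Krt15 separated the ES tumors from each other. It read 8.61, 8.69, 9.96 and 11.69 in ES 41, 47, 48 and 49 and 2.29 and 2.18 in ES 46 and 51, with a median of 8.65. In CDS it ranged from 1.42 to 3.06, median 2.05, overlapping with the low pair. The difference of -5.12 (SE 1.38, adjusted p = 0.0136) was called, with a bound of at least 2.69-fold, for a probe set that was tested only because of the 4 bright ES tumors.

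Dsp divided the ES tumors differently. With 1435494_PM_s_at it read 10.40, 12.90 and 8.73 in ES 41, 48 and 51 and 3.32, 2.05 and 1.42 in ES 46, 47 and 49, and the second probe set gave 10.82, 12.21 and 8.04 against 3.26, 2.42 and 1.90. Its differences between CDS and ES, -4.37 (SE 1.55, adjusted p = 0.0503) and -3.88 (SE 1.49, adjusted p = 0.0668), were not called as deposited; after quantile normalization the adjusted p was 0.0305 and 0.0342. Leaving out ES 46, 47 or 49 also brought both past the threshold, with 4 members called in each case. As deposited 2 of 10 members were called lower in CDS and 0 higher (8.71% of all lower and 11.1% higher), and after quantile normalization 4 (15.7% of all). Only Krt10 did not overlap, as did 6.21% of all in that direction. The Actb 3′ to 5′ difference was 0.80 ± 0.36 in CDS and 0.25 ± 0.05 in ES (n = 6 each; exact permutation test, two-sided, p = 0.00216, adjusted 0.0216), and its part in these results was not tested.

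The tumor ES 48 stood apart, with a probe set of each of the 8 genes above its dip of 5.52. The 3 untested probe sets of Trp63 (2.03, 2.11 and 2.30) and that of Dsp (1.79) were below it. It read 9.63 for Krt5 against 2.19 to 2.59 in the other ES tumors, 10.14 for Krt1, a signal for Perp at percentile 94.4 where the others read 1.77 to 2.47, and 5.96 for Trp63 against 1.66 to 2.37. With 1 probe set a gene, its signal was at least 2 log2 units above all other ES tumors for 7 of the 8 members, as for 135 of 12343 genes tested (1.09%). The exception was Krt15, which was higher in ES 49. The second tested Dsp probe set, not used in this count, missed the margin, at 12.21 in ES 48 and 10.82 in ES 41. Of the lists of skin genes, 3 of 3 tested hair keratins and 10 of 17 genes of the cornified envelope exceeded the other ES tumors by that margin. Among them were Flg (filaggrin, 10.67 against at most 1.80), Lor (loricrin, 9.96 against at most 2.06) and Krt34 (10.04 against at most 2.82). Most genes of the other lists did not: 1 of 3 epidermal keratins, 1 of 12 epidermal transcription factors and 1 of 11 epithelial junction genes passed it. So did 0 of 7 desmosome partners, 0 of 8 hemidesmosome and basement membrane genes and 0 of 7 p63 target genes. The summed linear signal of the 9 hair keratins on the array was 23800 in ES 48 and 63.2 to 146 in the other ES tumors, and that of the 10 epidermal keratins 3520 against 37.3 to 54.7. In ES 48, 8 of the 9 hair keratins and 4 of the 10 epidermal ones were above the dip. Skeletal muscle markers were also highest here among ES, at 302000 against 36.1 to 204000, with 10 of 10 above the dip in ES 48 and in each other ES tumor except ES 51 (0 of 10). The part of skin or muscle tissue in the sample was not tested.

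Results on ES are therefore given with and without ES 48. Without it, Perp was called higher in CDS than in ES, by 2.49 (SE 0.65, adjusted p = 0.0134, limma), where with it the difference was 0.86 (SE 1.38, adjusted p = 0.668). Perp stood at percentile 56.4 to 67.3 in CDS and 12.9 to 51.2 in the other 5 ES tumors, although only CDS 2 (7.11) and CDS 4 (5.25) exceeded their dip. Krt10 and Krt15 kept their calls, at -3.93 (SE 0.99, adjusted p = 0.0112) and -4.58 (SE 1.35, adjusted p = 0.0261). Krt14 differed by 0.35 (SE 0.25, adjusted p = 0.312) and was below the dip in all 11 tumors.

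ES set against eMC empty gave 2 members called higher, Krt10 and Krt15, and 1 lower, a probe set of Krt14, where 25.8% of all were called higher and 9.77% lower. Krt10 differed by 5.91 (SE 0.80, adjusted p = 0.000108, at least 8.22-fold), or 3.09 after quantile normalization, without overlap, and was the sole member without overlap (18.9% of all were higher in that way). Krt15, tested only because of its 4 bright ES tumors, differed by 4.69 (SE 1.76, adjusted p = 0.0447), and the call was lost when any of ES 41, 47, 48 or 49 or any eMC empty array was left out; without ES 48 it was 4.15 (adjusted p = 0.0771). Krt14 fell by 6.64 (SE 1.66, adjusted p = 0.00618). After quantile normalization the other Krt14 probe set (-5.7) and Krt5 (-3.72) were called lower too. The 75th percentile of signal was 8.23 ± 0.40 in ES and 5.14 ± 1.25 in eMC empty (exact permutation test, two-sided, p = 0.00476, adjusted 0.0238), and its part in these results was not tested. Without ES 48, 1 member was higher and 6 lower, where 7680 and 2737 of 26897 probe sets were so called (38.7% in either direction). The lower ones were Krt14 by -8.17 and -5.36, Krt5 by -3.13 (SE 0.68, adjusted p = 0.00341, limma), Perp by -3.02 (SE 0.55, adjusted p = 0.00129), Krt1 by -1.19 and Trp63 by -1.01. Krt1 and Trp63 were below the dip in all of these arrays, and Krt1 would not have passed the filter without eMC empty. The eMC empty arrays are those of the comparison with CDS, so the 2 results share their controls.

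Other epidermal keratins were also lower in the tumors than in eMC empty. The 3 tested epidermal keratins, the wound and stress keratins Krt6a, Krt6b and Krt16, were all lower in CDS than in eMC empty (median -5.53 against 0.89 for all genes) and all lower in ES than in eMC empty. Of all probe sets, 4.89% were lower in CDS and 9.77% in ES. Krt6a read 9.82, 7.43, 9.75 and 10.52 in eMC empty, 10.03 to 10.09 in eMC CIC-DUX4 and 2.15 to 4.12 in CDS, a fall by 6.24 from eMC empty (SE 1.01, adjusted p = 0.000169, at least 11.9-fold). In ES, Krt6a was 9.95 in ES 48 and 2.51 to 3.14 elsewhere, whereas Krt6b (2.82) and Krt16 (3.03) were below the dip in ES 48 too. Between the cultures, 1 of the 3 was called higher as deposited (Krt16) and 2 lower after quantile normalization (Krt6b and Krt16, the direction of Krt16 being turned; 6.11% of all were lower).

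Of 5 simple epithelial keratins, those of single-layered epithelia, 2 were called lower in CDS than in ES and 0 higher (8.71% of all probe sets were lower and 11.1% higher). Krt20, a keratin of intestinal, urothelial and Merkel cells, read 10.62 to 13.38 with a median of 12.64 in ES and at most 3.31 in CDS, without overlap, and was lower by 10.09 (SE 0.76, adjusted p = 1.5e-08, at least 99.8-fold); it passed the filter through the 6 ES tumors alone. It was also low in the cultures, at 1.49 to 2.73 in eMC empty. Krt18 was bright in ES 41, 46, 49 and 51 (9.42 to 10.75) and dim in ES 47 and 48 (2.30 and 2.43). Against eMC empty, 2 of these 5 were called lower in CDS, Krt7 and Krt18, and 4 after quantile normalization, with Krt8 and Krt19 (4.89% and 19.9% of all). Krt7, Krt8 and Krt19 were below the dip in every array of both groups.

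Among 7 tested partners of Dsp in the desmosome, 4 were lower in CDS than in ES (Dsg2, Pkp1, Dsc2 and Pkp4) and 0 higher, where 8.71% of all probe sets were lower and 11.1% higher. Dsg2, a desmosomal cadherin, read 9.45 to 13.04 in ES and 1.86 to 3.10 in CDS and was lower by 9.61 (SE 0.82, adjusted p = 7.86e-08, at least 69.4-fold). Pkp1, a plakophilin of stratified epithelia, was lower by 7.73 (SE 0.81, adjusted p = 1.49e-06), from 9.75 to 12.29 in ES to 2.17 to 6.60 in CDS. Both were bright in all 6 ES tumors, also in the 3 with dim Dsp. Against eMC empty, 1 of the 7 (Dsc2) was lower in CDS as deposited and 4 after quantile normalization (4.89% and 19.9% of all). Dsc2 was below the dip in every array of both groups.

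Of 11 tested genes of epithelial junctions, 3 were lower in CDS than in ES and 1, the P-cadherin gene Cdh3, was higher, where 8.71% of all probe sets were lower and 11.1% higher. After quantile normalization 5 were lower (Cdh1, Esrp1, Cldn4, Marveld2 and Prss8, 15.7% of all) and 1 higher (15.2% of all). Marveld2 and Prss8 would not have passed the filter without ES, nor Cdh3 without CDS. In each case that is the group of their high values, so these calls are partly set by the filter. Cdh1 (E-cadherin) read 12.12, 7.49, 9.61 and 12.38 in ES 41, 46, 48 and 51 and 1.66 and 2.16 in ES 47 and 49, with CDS at 2.04 to 3.42. It was lower in CDS by 5.06 (SE 1.58, adjusted p = 0.03, at least 3.4-fold) and by 2.22 against eMC empty (SE 0.54, adjusted p = 0.00637), or -4.27 after quantile normalization. Esrp1, a splicing regulator of epithelial cells, was lower in CDS than in ES by 5.96 (SE 1.46, adjusted p = 0.00746), though it would not have passed the filter without ES, and Epcam by 2.9 (SE 0.89, adjusted p = 0.0268), which was not called after quantile normalization. Of 17 tested cornified envelope genes, 3 were lower in CDS than in eMC empty as deposited (Sprr1b, Krtdap and Klk7) and 10 after quantile normalization (4.89% and 19.9% of all), and limma called 0 between CDS and ES on either scale (1 had an unadjusted p under 0.05 as deposited), or 2 higher in CDS without ES 48. Without CDS 2, whose median signal also exceeds 5, 6 were lower in CDS than in eMC empty as deposited. Sprr1b was below the dip in every CDS and eMC empty array.

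Some transcription factors of the epidermis were higher in CDS. Of 12 tested, 4 were higher and 1 lower in CDS than in ES (11.1% and 8.71% of all probe sets; median 0.55 against 0.02 for all genes), and after quantile normalization 4 higher and 2 lower (Klf4 and Grhl2). Against eMC empty, 3 were higher and 0 lower (13.2% and 4.89% of all), and after quantile normalization 4 higher (18.2% of all) and 2 lower (19.9%), the latter being Klf4 (-3.07, adjusted p = 0.000211) and Bnc1. Bnc1 was below the dip in every array of both groups. Tfap2c, an AP-2 factor, read 5.98 to 9.70 with a median of 9.12 in CDS, 1.74 to 2.29 in ES and 2.05 to 2.43 in eMC empty, and was higher than in ES by 6.74 (SE 0.90, adjusted p = 2.72e-05, at least 12.5-fold). Elf3, an ETS factor of epithelia, was higher by 5.9 (SE 1.02, adjusted p = 0.000429, at least 11.3-fold), and Tfap2a by 4.03 (SE 1.42, adjusted p = 0.0488) with overlap. The fourth was Grhl3, and with arrays scaled to 1 median the calls of Tfap2a and Grhl3 were lost. Tfap2c, Elf3 and Grhl3 would not have passed the filter without CDS, the group of their high values. Klf4, a factor of the epidermal barrier, was the one that was lower, by 5.23 (SE 0.82, adjusted p = 0.000167), from 11.22 to 12.97 in ES to 4.13 to 9.15 in CDS.

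The next genes attach the basal cell to the basement membrane. Of 8 tested hemidesmosome and basement membrane genes, 3 were higher and 0 lower in CDS than in eMC empty (13.2% and 4.89% of all): Itga6 (integrin alpha 6) by 4.06 (SE 0.62, adjusted p = 9.18e-05), Dst (dystonin) by 5.78 (SE 0.72, adjusted p = 8.87e-06) and Plec by 2.5 (SE 0.73, adjusted p = 0.0214). After quantile normalization the differences were 2.73, 3.42 and 1.16, and Col17a1, below the dip in every array of both groups, was called lower. With arrays scaled to 1 median, Itga6 (adjusted p = 0.0711) and Plec (adjusted p = 0.337) were not called. Itga6 is also a gene of endothelium, of which 7 of 8 markers were higher in CDS than in eMC empty (13.2% of all). Their summed signals were 4900 to 10100 in CDS and 47.4 to 71.9 in eMC empty, and their part in the result was not tested. Against ES, 2 of the 8, Dst and Lama3, were higher in CDS and 0 lower (11.1% and 8.71% of all), and Dst was not called with arrays scaled to 1 median. Lama3 was higher in CDS than in ES by 2.98 (SE 0.82, adjusted p = 0.0152, at least 1.19-fold). Only CDS 2 (9.05) and CDS 4 (6.84) exceeded their dip for Lama3, and all ES tumors were below theirs. Of 7 tested p63 target genes, 1 (Ikbkb) was higher and 0 lower in CDS than in eMC empty (13.2% and 4.89% of all probe sets). After quantile normalization Fgfr2 (-3.67, adjusted p = 8.45e-06, limma) and Fras1 were lower (19.9% of all). Against ES, 3 were higher (Igfbp3, Fgfr2 and Cdkn1a) and 1 lower (Ripk4), where 11.1% of all probe sets were higher and 8.71% lower. Fgfr2 was not called after quantile normalization, and of the 4 only Ripk4 was called with arrays scaled to 1 median. Ripk4 would not have passed the filter without ES, the group of its high values, nor Fras1 without eMC empty. Fras1 was below the dip in every CDS and eMC empty array. The call of Ikbkb was lost without CDS 2.

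**Figure D4:**
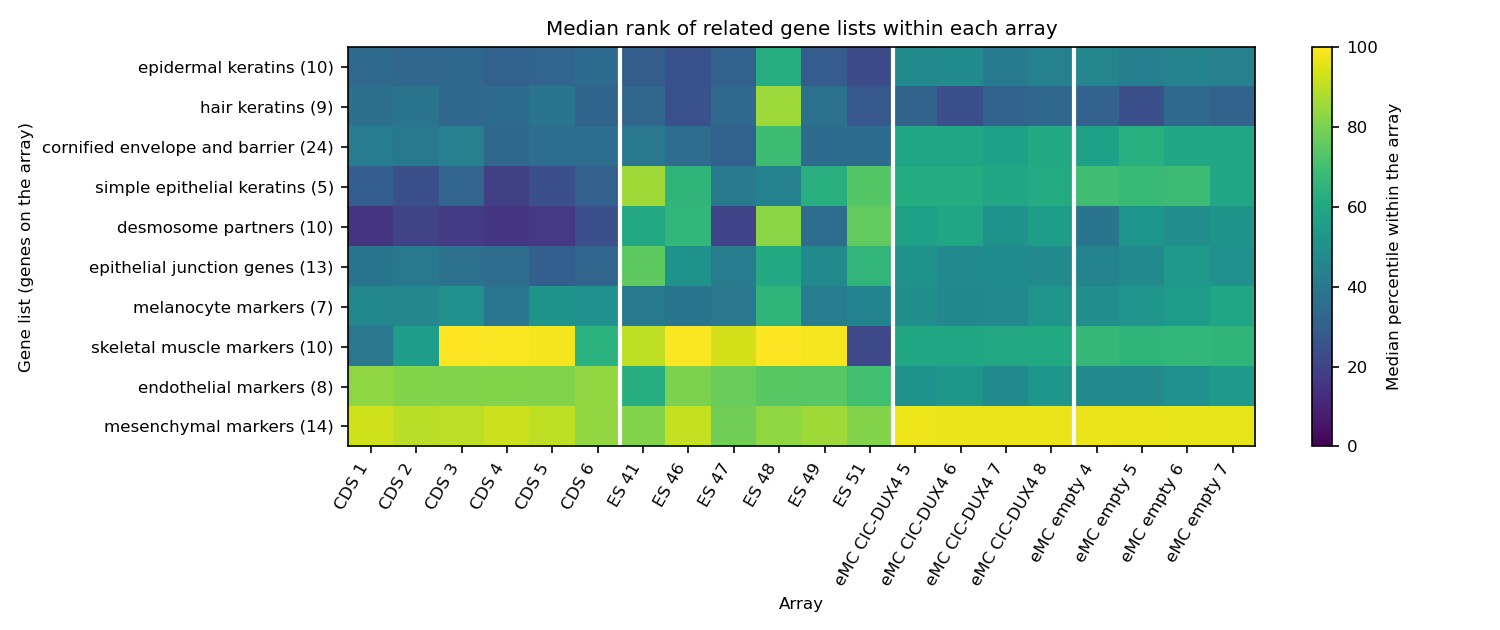
Colour map of the median percentile, from 0 to 100, of the genes of 10 lists (rows, with the number of genes on the array) within each of the 20 arrays (columns), with white lines between the groups. The desmosome partners lie at 15.0 to 24.4 in CDS and 38.4 to 58.9 in the cultures, and the hair keratins at 85.5 in ES 48 against 25.0 to 37.3 in the other ES tumors.

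Lists of other cell types gave mixed counts between CDS and eMC empty. Of all probe sets, 4.89% were called lower and 13.2% higher as deposited, and 19.9% lower after quantile normalization. The list of sebaceous gland and skin fat markers, 3 of 9 of which are on the array, had summed signals of 19600 to 31800 in eMC empty and 11500 to 15600 in eMC CIC-DUX4 against 12.1 to 6920 in the tumors. Its 2 tested genes, Adipoq and Cidea, which are genes of fat cells, were both lower in CDS than in eMC empty, and Cidea fell by 10.17 (SE 0.90, adjusted p = 7.6e-08, at least 128-fold). Of 7 melanocyte markers, 4 were tested and 0 called by limma between CDS and eMC empty (0 also at an unadjusted p under 0.05), but after quantile normalization Sox10 was lower (-2.04, adjusted p = 0.000149), with sums of 86.6 to 896 in eMC empty and 1210 to 1730 in eMC CIC-DUX4. Mesenchymal markers, 14 of 14 tested, were lower in CDS than in eMC empty for 5 and higher for 0, and Twist2, a dermal mesenchyme factor, fell by 8.68 (SE 0.95, adjusted p = 1.48e-06, at least 41.4-fold). Whether the keratin signal of the cultures came from a share of the cells or from all of them was not tested.

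The genes most like Krt14 over the 12 tumors, by Pearson's r of log2 signals, were Flg, Krtdap, Calm4, Lce1d, Serpinb5, Csta1, 2310011E23Rik and Cldn1, with r between 0.999 and 0.9931. Each was bright in ES 48 (8.43 to 11.04) and at most 3.66 in the other 11 tumors, below the dip of each. Without ES 48, r was 0.79 to 0.96 over these dim signals. Those most like Perp were Lce1a2, Lce1f, Lor, Sbsn, Krt34, Lce1b, Asprv1 and Krt73 (r from 0.9858 to 0.9307; 0.74 to 0.95 without ES 48), again brightest in ES 48. Krt10 had other neighbours: Rbpms2, Fastkd1, Slc37a3, Slc6a17, Ntrk2, Ago4, Dbt and Cenpl (r from 0.9421 to 0.9243; 0.96 to 0.99 without ES 48). All points share the arrays' differing distributions of signal.

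Within the tumor groups, 14 relations of Krt14 with the other 7 members were computed by exact permutation over 6 tumors, and 6 had a Benjamini-Hochberg adjusted p under 0.05 by Pearson's r and 0 by Spearman's rho. In CDS these were Krt1, Krt15 and Dsp, for example Krt15 with r = 0.96 (p = 0.00278, adjusted 0.0292), rho = 0.94 (p = 0.0167, adjusted 0.0933) and r = 0.90 without CDS 4 and 5. Every CDS value of these 3 genes and of Krt14 was below the dip of its array, and after quantile normalization 0 relations passed. In ES the relations with Krt5, Krt1 and Trp63 set ES 48 against 5 tumors, so no pooled r is given. Without ES 48, 2 of the 14 passed.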

How the data were processed

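Biotin-labelled cRNA from total RNA of 20 samples was hybridised to 1 Affymetrix mouse array each. The authors deposited log2 values of the signal that MAS5 computes, per the submitters' processing notes; how MAS5 was scaled is not given in the sources. The values were returned to the linear scale and tested as log2(signal + 1.42385). The array has 45141 probe sets. Leaving out 104 controls, 45037 remained; the gene table gives 1 symbol for 28898, several for 551 and none for 15588. Probe sets above their array's median in at least 4 arrays were tested (26897). Each of 5 comparisons was fitted in R 4.3.3 on its 2 groups alone, by lmFit and trended eBayes of limma 3.58.1, two-sided, with Benjamini-Hochberg adjustment over all probe sets tested. For gene lists, 1 probe set a gene, of the highest mean over all arrays, was used (12343 genes). The dip was found with a density bandwidth of 0.35. A bound ("at least") divides the brighter group's level by a floor, which in each dimmer array is the dip or, if higher, the signal itself, averaged as log2. Linear sums over lists use the same values.

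The members and the 16 gene lists were chosen with earlier results of these data known. Named were all member probe sets; of each list, up to 3 called genes of the largest fold change in CDS against ES and in each tumor type against eMC empty, or the gene of the highest mean; and 8 genes each most like Krt14, Krt10 and Perp. Pkp4, Grhl3, Cdh3, Cdkn1a, Prkcb, Bnc1, Col17a1, Fras1, Grhl2, Marveld2, Prss8, Krt8 and Krt19 were named after their values were seen, to complete counts. The fits were tested on simulated data. Alternatives were another scaling, offset, filter, spread model, set of arrays or summary of probe sets, and the replicate number as a block. How precise a value is depends on how many arrays a group has. Columns of no listed sample numbered 0.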

Additional observations from a re-analysis of the deposited data

Results flagged for a closer look

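Among 56 groups of 4 to 6 arrays examined for a single array far from the rest (a gap above Dixon's critical value at the usual level), 7 stood out, where chance gives about 1 in 20. The ES tumor 48 accounted for 6 of them, which share that array and are not independent. It read 11.05 and 9.76 for the Krt14 probe sets where the next ES tumors read 1.99 and 1.94. Krt5 was 9.63 there (next 2.59), Krt1 10.14 (next 2.56), Trp63 5.96 (next 2.37) and Perp 12 (next 2.47). The untested Dsp probe set 1427610_PM_at read 6.15 in eMC CIC-DUX4 6 and at most 1.56 in the other arrays of that group; this array has no dip and a median signal of 7.05, which exceeds the reading.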

How the results depend on the processing

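Counts are of the 10 tested members called. After quantile normalization they were 1 for eMC CIC-DUX4 against eMC empty, 8 for CDS against eMC empty, 4 for CDS against ES and 5 for ES against eMC empty. The shares of all probe sets called in either direction were 13.5%, 38.1%, 30.8% and 37.0% in the same order. With arrays scaled to the same median, eMC CIC-DUX4 against eMC empty gave 0 and CDS against ES 4. With all 4 groups in 1 fit, CDS against eMC empty gave 2 and CDS against ES 4. With 1 probe set a gene, CDS against eMC empty gave 2 of 8. Requiring 10 arrays above the median left 5 probe sets, of which 2 were called for CDS against eMC empty, 4 for CDS against eMC CIC-DUX4 and 1 for ES against eMC empty; fewer members were tested. Leaving out 1 array gave 7 to 7 for eMC CIC-DUX4 against eMC empty, 4 to 5 for CDS against eMC empty, 7 to 8 for CDS against eMC CIC-DUX4, 2 to 4 for CDS against ES (4 without ES 46, 47 or 49) and 2 to 7 for ES against eMC empty (7 without ES 48). Quantile normalization without ES 48, chosen after seeing the data, gave 4 for CDS against ES and 7 for ES against eMC empty. Of the relations of Krt14 with the other 7 members, 0 passed after quantile normalization and 2 without ES 48.

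Directions turned for Krt10 in eMC CIC-DUX4 against eMC empty after quantile normalization (-0.64), for Krt1 there without the arrays of high median (-1.15), and for Krt1 in ES against eMC empty without ES 48 (-1.19, or -1.58 with quantile normalization too, within a range of -1.19 to 0.49 when 1 array was left out). The cause was not tested. The offset of 16, no filter and the other spread models left every count within 1.5 times.

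Replicate numbers are shared by some groups, but the deviations of arrays with 1 number correlated between -0.2061 and 0.5092, so the numbers were not taken as pairs. With the replicate number as a block, eMC CIC-DUX4 against eMC empty kept a count of 7, CDS against eMC empty had 3 and CDS against eMC CIC-DUX4 had 8.

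Signals below the dip set the limit: they carry no dependable order, and 11.1% to 26.9% of probe sets lay above it in eMC empty.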
